A study of Mus musculus with 32 samples.

Results

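The genes that carry out mitosis, chromosome attachment at the kinetochore and cytokinesis were followed in mouse bone marrow-derived macrophages with and without Trem2. The set holds 53 genes, listed by gene name, out of 24885 Entrez identifiers in the count table. All 53 were found by gene symbol, and all 53 were among the 11244 genes that passed the filter on low counts. They fall into 10 roles, from the cyclins with CDK1 to the proteins of the cell midzone.

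RNA with poly(A) tails was read in 32 libraries primed with oligo-dT, 4 in each of 8 groups. Trem2 knockout macrophages (KO, T2KO in the labels, derived from Trem2-/- mice) were set against wild-type macrophages (WT), and both are labelled as C57BL/6. In each genotype, cells in low M-CSF were set against cells in normal M-CSF, and cells given LPS at 10 ng/ml for 4 hours against cells without LPS. The protocols describe an overnight culture in complete RPMI with 0.5% or 10% LCCM, and it is inferred here, not stated, that these are the low and the normal medium, in that order. Age, number of mice and the origin of the 4 libraries in a group (separate animals, separate dishes or repeats) are not in the labels. Each p therefore measures the spread between these libraries, which may be technical.

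Mitosis starts when cyclin A and cyclin B activate the kinase CDK1, after which condensin compacts the chromosomes and kinesins build the spindle. Kinetochores assembled on centromeric CENP-A chromatin bind the spindle microtubules, and the spindle assembly checkpoint holds back the anaphase-promoting complex until every chromosome is attached. Separase then opens the cohesin rings, and the central spindle and the contractile ring divide the cell. Most of these genes are silenced in resting cells by the DREAM complex, whose MuvB core binds the promoter motif called CHR (cell cycle genes homology region). In dividing cells the same core works with the activators MYBL2 and FOXM1. M-CSF is the growth factor that macrophages from bone marrow need to survive and divide, and LPS is known to slow their growth.

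Libraries held between 3068863 and 15585423 counts (median 5596111). CPM here are counts scaled to a common library size. On the raw library totals 3 counts, the upper limit for a gene seen 0 times, stand for 0.193 to 0.978 CPM. The CPM printed here also carry the TMM scaling described below, which moves this limit. It raises the limit most in low M-CSF with LPS, in KO and in WT cells, and lowers it in KO cells in low M-CSF without LPS. Trem2 was lower in KO than in WT libraries in all 4 conditions, at 99.0 to 132 CPM in KO and 371 to 517 CPM in WT libraries in low M-CSF without LPS, and at 3.65 to 9.01 CPM in KO and 194 to 253 CPM in WT libraries in normal M-CSF with LPS. The labels do not say which exons were deleted, so reads from the 3' end check the labels only in part. All 10 macrophage markers of the list used here had counts in every group. Library 1 resembled library 3, and library 2 resembled library 4, more than other pairs did in 6 of the 8 groups. A chi-square of their counts, divided by its degrees of freedom, had a median of 6.37 over these 16 pairs and of 27.6 over the other 32 pairs. No pair came within sampling noise (lowest value 4.03), which cannot tell repeats of a culture from separate cultures, because library preparation also adds spread. Each library was kept as its own replicate, with the origin of the pairs unknown. Counts of calls with such libraries summed, which leaves 2 values per group, are given where they differ by more than 1.5 times.

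The mean summed level of the 53 genes was lower in low than in normal M-CSF in both genotypes, with and without LPS. The sum is weighted towards genes of high level, such as Smc4, Top2a and Mki67 (means of 679, 615 and 381 CPM over all libraries). Its mean in KO cells in low M-CSF was 1663 CPM with LPS and 1529 CPM without, although most members had their lowest mean in the group with LPS. As a share of raw counts, without TMM scaling, the sum in these cells was 0.08928% to 0.1255% with LPS and 0.0944% to 0.2478% without. Without LPS the sum was 765, 2117, 1183 and 2052 CPM in the 4 KO libraries in low M-CSF, against 5623, 8236, 4521 and 4256 CPM in the 4 WT libraries in low M-CSF. All KO libraries lay below all WT libraries. In normal M-CSF without LPS it was 10363, 7260.2, 9504 and 6547 CPM in KO and 7944, 10907, 9705 and 10417 CPM in WT libraries, which overlapped. With LPS, low M-CSF gave 1764, 1550.2, 2008 and 1330.4 CPM in KO and 3665, 1614, 2991 and 1857 CPM in WT libraries. Normal M-CSF with LPS gave 5559, 6283, 4830.1 and 6196 CPM in KO and 6357, 8371, 6034 and 7345 CPM in WT libraries. The genotypes overlapped in both media with LPS. Libraries 1 and 3 also differed from 2 and 4 in this sum. In KO cells they both lay below them in low M-CSF without LPS and in normal M-CSF with LPS. They both lay above them in KO cells in low M-CSF with LPS and in normal M-CSF without LPS. In WT cells they were both below in normal M-CSF, with and without LPS, and both above in low M-CSF with LPS. Only WT cells in low M-CSF without LPS had no such order. In bulk RNA, fewer dividing cells and less mitotic RNA per cell cannot be told apart.

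**Figure D1:**
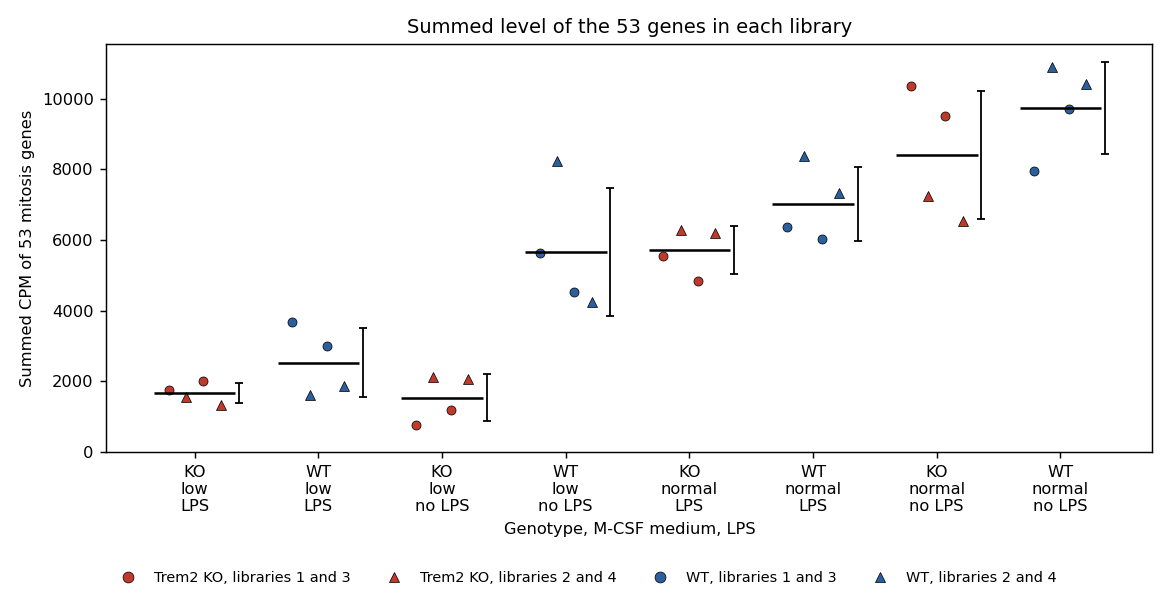
Summed CPM of the 53 genes in each library (points), by genotype, medium and LPS; the line is the group mean and the bar its SD (n = 4 libraries). The 4 KO libraries in low M-CSF without LPS sit between 765 and 2117 CPM, below the 4 WT libraries of the same medium at 4256 to 8236 CPM.

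Gene by gene, the mean was highest in WT cells in normal M-CSF without LPS for 34 members and in KO cells in normal M-CSF without LPS for 14. It was lowest in KO cells in low M-CSF with LPS for 44 members and in KO cells in low M-CSF without LPS for 8. The order of the remaining groups varied from gene to gene.

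The promoters of the members in the RefSeq table (build GRCm38.p6, 250 bases before to 50 after each start) were searched on both strands for the CHR letters TTTGAA, for the NF-Y motif CCAAT and for TATAAA. A promoter was given for 46 of the 53 genes, and for 9096 of the genes tested. TTTGAA was in the promoter of 33 of the 46 members (71.7%), against 14.4% of the genes tested. CCAAT was in 34 (73.9%), against 43.3% of the genes tested, and at least 2 copies in 21 (45.7%), against 17.2%. Both motifs were in 27 members (58.7%), against 6.02% of the genes tested, and TATAAA was in 4.35% of members, against 8.54%. These matches are descriptions of the letters and not evidence of binding. The 150 bases up to the start are a shorter stretch than the window searched, and 13 of the 46 members held both motifs there. This stretch is given here for 4 of these members and for Kif4, which rose with LPS in KO cells in low M-CSF. It is given also for Cenph, with the largest genotype difference in low M-CSF without LPS, and for Pttg1, which moved apart from the rest. Each is written 5′ to 3′ on the gene's strand, with TTTGAA and CCAAT or their reverse complements in capitals.
Cdk1: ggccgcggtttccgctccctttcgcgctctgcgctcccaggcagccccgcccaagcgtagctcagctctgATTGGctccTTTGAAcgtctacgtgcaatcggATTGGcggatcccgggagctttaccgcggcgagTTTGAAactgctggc
Top2a: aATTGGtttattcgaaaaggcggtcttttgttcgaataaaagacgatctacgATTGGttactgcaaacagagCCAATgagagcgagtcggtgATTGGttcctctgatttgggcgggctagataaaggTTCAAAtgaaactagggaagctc
Cdc20: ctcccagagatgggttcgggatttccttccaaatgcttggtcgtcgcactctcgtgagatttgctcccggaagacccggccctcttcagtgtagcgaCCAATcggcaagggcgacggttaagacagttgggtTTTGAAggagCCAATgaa
Ube2c: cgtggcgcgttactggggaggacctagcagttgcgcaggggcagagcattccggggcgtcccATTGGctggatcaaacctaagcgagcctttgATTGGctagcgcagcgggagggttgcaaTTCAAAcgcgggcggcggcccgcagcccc
Kif4: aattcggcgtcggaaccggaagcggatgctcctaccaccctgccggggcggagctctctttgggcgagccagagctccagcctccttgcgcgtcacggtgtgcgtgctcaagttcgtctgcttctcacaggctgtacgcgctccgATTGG
Cenph: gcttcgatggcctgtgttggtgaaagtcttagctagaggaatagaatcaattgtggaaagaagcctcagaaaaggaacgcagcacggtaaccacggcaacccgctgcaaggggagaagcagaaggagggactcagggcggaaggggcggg
Pttg1: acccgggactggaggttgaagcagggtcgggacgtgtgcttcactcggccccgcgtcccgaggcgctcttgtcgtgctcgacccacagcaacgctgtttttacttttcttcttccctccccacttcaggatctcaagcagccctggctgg
The Cdk1 stretch held 2 copies each of TTTGAA and CCAAT, and the Top2a stretch 1 TTTGAA and 4 CCAAT. Those of Cdc20 and Ube2c held 1 TTTGAA and 2 CCAAT each. Kif4 had 1 CCAAT in this stretch, and Cenph and Pttg1 had neither motif in it, which says only that these letters are not in this stretch. In the full window searched, Kif4 also held TTTGAA and Cenph held CCAAT, both after the start. The windows lie, in the order shown, at chr10:69352913-69353062 (-), chr11:99024190-99024339 (-), chr4:118437344-118437493 (-), chr2:164769779-164769928 (+), chrX:100625915-100626064 (+), chr13:100775900-100776049 (-) and chr11:43425982-43426131 (-), with the strand after each position.

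In low M-CSF without LPS, 51 of the 53 genes were lower in KO than in WT cells and 0 were higher (edgeR quasi-likelihood test, Benjamini-Hochberg adjusted p under 0.05). Of all genes tested in this comparison, 8.97% were lower and 7.74% higher. The members' median log2 change was −2.18 and their range −3.26 to 0.40, beside a median of 0.07 over all genes tested. The 2 genes that did not pass were Cenpa (log2 change −0.23 ± 0.22) and Pttg1 (0.40 ± 0.18). In 50 members every KO library lay below every WT library, which held for 10.3% of all genes tested. In normal M-CSF without LPS no member passed in the same genotype comparison, and their median log2 change was −0.12. The values below follow the roles, with the 2 members of highest mean level in each role.

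CDK1 and its partners drive entry into mitosis, and all 5 genes of this role were lower in KO cells in low M-CSF. Cdk1, the kinase itself, had 23.9, 24.1, 22.6 and 20.2 CPM in KO and 59.3, 61.9, 51.4 and 38.3 CPM in WT libraries in low M-CSF. In normal M-CSF it had 159, 182, 163 and 189.6 CPM in KO and 242, 175, 174 and 156 CPM in WT libraries. The genotypes were apart in low medium and overlapped in normal medium, and the low-medium difference was −1.22 ± 0.21 (adjusted p = 5.66e-05). Ccnb2, a B-type cyclin, had 6.53, 14.1, 27.8 and 17.2 CPM in KO and 94.7, 53.3, 75.5 and 39.6 CPM in WT libraries in low M-CSF. Normal M-CSF gave 83.5, 115, 86.2 and 113 CPM in KO and 121, 184, 122 and 163 CPM in WT libraries. All KO libraries were below all WT libraries in both media, but only the low-medium difference of −1.99 ± 0.26 passed (adjusted p = 2.45e-07, against 0.331 in normal medium). Mastl, the Greatwall kinase that keeps CDK1 substrates phosphorylated, was lower by −2.78 ± 0.23 in KO cells in low medium.

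Of the kinases and factors that build the spindle, 5 of 5 were lower in KO cells in low medium. Nusap1, which bundles spindle microtubules, had 5.93, 33.4, 13.03 and 34.3 CPM in KO and 159, 266, 129 and 106 CPM in WT libraries. Its levels in normal M-CSF were 211, 169, 201 and 132 CPM in KO and 166, 301, 244 and 299.6 CPM in WT libraries. No KO value reached a WT value in low medium (−2.90 ± 0.32, adjusted p = 1.64e-08), and the genotypes overlapped in normal medium. Tpx2, which activates Aurora A on the spindle, had 6.53, 21.4, 22.2 and 23.1 CPM in KO and 103, 106, 72.7 and 61.9 CPM in WT libraries in low M-CSF. The normal M-CSF groups had 301, 357, 284 and 286 CPM in KO and 149, 192, 191 and 188 CPM in WT libraries. The order of the genotypes was thus opposite in the 2 media, with all KO libraries below in low medium (−2.21 ± 0.25, adjusted p = 2.10e-08) and all above in normal medium, where the difference missed the threshold (0.77 ± 0.24, adjusted p = 0.0889).

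All 4 spindle assembly checkpoint genes were lower in KO cells in low medium. Bub1b, which encodes the checkpoint protein BUBR1, had 7.60, 15.04, 13.8 and 14.1 CPM in KO and 84.5, 62.5, 62.2 and 33.4 CPM in WT libraries in low M-CSF. Libraries in normal M-CSF held 106, 159.7, 106 and 135 CPM in KO and 120.4, 109, 81.6 and 115 CPM in WT libraries. Separation in low medium (−2.25 ± 0.25, adjusted p = 1.30e-08) stood beside overlap in normal medium. Bub1, the kinase that recruits the checkpoint to kinetochores, had 4.71, 6.03, 3.39 and 6.14 CPM in KO and 29.5, 47.9, 24.1 and 24.2 CPM in WT libraries in low M-CSF. In normal M-CSF it had 118, 62.8, 108 and 51.5 CPM in KO and 52.7, 109.6, 93.9 and 132 CPM in WT libraries. Its genotypes were likewise apart in low medium (−2.61 ± 0.33, adjusted p = 1.24e-07) and overlapped in normal medium, where KO libraries 1 and 3 stood above libraries 2 and 4.

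The chromosomal passenger complex corrects wrong attachments and later acts in cytokinesis, and its 4 genes were all lower in KO cells in low medium. Incenp, the scaffold of the complex, had 90.4, 177, 102 and 166 CPM in KO and 332, 592, 272 and 296 CPM in WT libraries in low M-CSF. Normal M-CSF gave 356, 387, 299 and 329 CPM in KO and 176, 523, 419 and 468 CPM in WT libraries. The low-medium difference was −1.47 ± 0.25 (adjusted p = 3.85e-05), with no overlap. Cdca8, which encodes Borealin, had 7.75, 22.4, 21.3 and 21.9 CPM in KO and 68.8, 86.1, 59.8 and 44.1 CPM in WT libraries in low M-CSF. Its levels in normal M-CSF were 159, 135, 149.9 and 114 CPM in KO and 95.1, 162, 128 and 155 CPM in WT libraries. Again the genotypes were apart in low medium (−1.80 ± 0.23, adjusted p = 1.96e-07) and overlapped in normal medium.

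Among the 5 centromere and inner kinetochore genes 4 were lower and 1, Cenpa, did not pass. Cenpa, the histone H3 variant that marks centromeres, had 72.2, 62.6, 103 and 69.01 CPM in KO and 98.1, 93.2, 95.6 and 73.5 CPM in WT libraries in low M-CSF. The normal M-CSF groups had 89.4, 139.7, 107 and 141 CPM in KO and 112, 90.1, 122 and 106 CPM in WT libraries. The genotypes overlapped in both media (−0.23 ± 0.22 in low medium, adjusted p = 0.505). Cenph, an inner kinetochore subunit, had 2.13, 5.30, 3.76 and 6.68 CPM in KO and 61.2, 51.5, 42.04 and 24.5 CPM in WT libraries in low M-CSF. Libraries in normal M-CSF held 74.1, 39.5, 53.8 and 32.1 CPM in KO and 46.9, 48.7, 53.1 and 43.2 CPM in WT libraries. This was the largest genotype difference among the members in low medium without LPS (−3.26 ± 0.32, adjusted p = 8.85e-10). The promoter stretch shown for Cenph held neither motif, though a CCAAT lay after the start. Cenpn, which binds CENP-A nucleosomes, had the smallest difference that passed (−0.91 ± 0.32), and its call was lost without KO library 1 (−0.65), without KO library 4 (−0.89), without WT library 1 (−0.73) or without WT library 3 (−0.83). With the replicate number as a block it was lost as well (−0.92).

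All 7 outer kinetochore and corona genes were lower in KO cells in low medium. Cenpe, the kinesin that carries chromosomes along spindle microtubules, had 25.98, 121, 49.4 and 106 CPM in KO and 366, 583, 284 and 281 CPM in WT libraries in low M-CSF. In normal M-CSF it had 635, 266, 548 and 207 CPM in KO and 274, 617, 444 and 549 CPM in WT libraries. Overlap was absent in low medium (−2.32 ± 0.41, adjusted p = 6.07e-05) and wide in normal medium. Cenpf, a corona protein, had 14.4, 84.5, 37.2 and 84.7 CPM in KO and 283, 412, 226 and 193 CPM in WT libraries in low M-CSF. Normal M-CSF gave 345, 167, 334 and 149 CPM in KO and 187, 400.2, 301 and 364 CPM in WT libraries. In both genes KO libraries 1 and 3 lay below libraries 2 and 4 in low medium and above them in normal medium. Knl1, the scaffold on which checkpoint proteins gather, had 3.19, 8.86, 6.15 and 7.49 CPM in KO and 45.8, 96.4, 32.5 and 43.5 CPM in WT libraries in low M-CSF, a difference of −3.05 ± 0.30 (adjusted p = 1.21e-09).

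The 8 mitotic kinesins were all lower in KO cells in low medium. Kif23, a motor of the central spindle, had 18.8, 34.8, 32.1 and 39.1 CPM in KO and 148, 355, 110.1 and 174 CPM in WT libraries in low M-CSF. Its levels in normal M-CSF were 248, 272, 246 and 252 CPM in KO and 305, 229, 270.02 and 249 CPM in WT libraries. The low-medium difference was −2.65 ± 0.28 (adjusted p = 3.18e-09) in log2 units, and in normal medium the genotypes overlapped. Kif20b, a kinesin of late cytokinesis, had 11.2, 63.2, 21.7 and 59.1 CPM in KO and 190.4, 269, 159.98 and 119 CPM in WT libraries in low M-CSF. The normal M-CSF groups had 269, 111, 242 and 95.8 CPM in KO and 153, 307, 255 and 271 CPM in WT libraries. It too was apart in low medium only (−2.23 ± 0.40, adjusted p = 7.65e-05).

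The 7 genes of condensin, topoisomerase II and the chromosome periphery were all lower in KO cells in low medium. Smc4, an ATPase of condensin, had 205, 669, 255 and 633 CPM in KO and 950.2, 1372, 775 and 849.9 CPM in WT libraries in low M-CSF. Libraries in normal M-CSF held 1283, 554, 1093 and 486 CPM in KO and 749, 1302, 988 and 1124 CPM in WT libraries. Its difference in low medium (−1.16 ± 0.33, adjusted p = 0.011) missed the threshold without KO library 1 (−0.93), KO library 3 (−0.97) or WT library 2 (−0.96). Top2a, which untangles sister DNA, had 30.1, 106, 54.6 and 107 CPM in KO and 534, 829, 392.5 and 345 CPM in WT libraries in low M-CSF. In normal M-CSF it had 1390, 994, 1193 and 798 CPM in KO and 906, 1351, 1212 and 1278 CPM in WT libraries. The highest KO library in low medium was far below the lowest WT library (−2.81 ± 0.35, adjusted p = 9.89e-08). Ncapg, a condensin subunit, had 2.58, 11.1, 5.32 and 9.67 CPM in KO and 54.7, 93.7, 40.9 and 48.2 CPM in WT libraries in low M-CSF (−3.0 ± 0.36, adjusted p = 5.52e-08).

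Of the 4 genes of anaphase promotion and separase control, 3 were lower and Pttg1 did not pass. Ube2c, the ubiquitin-conjugating enzyme of the anaphase-promoting complex, had 5.62, 17.4, 17.7 and 18.7 CPM in KO and 57.04, 116, 58.8 and 71 CPM in WT libraries in low M-CSF. Normal M-CSF gave 154, 181, 154 and 189 CPM in KO and 122, 161, 150 and 179 CPM in WT libraries. The genotypes were apart in low medium (−2.33 ± 0.24, adjusted p = 2.73e-09) and overlapped in normal medium. Pttg1, which encodes securin, the inhibitor of separase, had 33.9, 21.1, 29.6 and 24.4 CPM in KO and 18.1, 17.4, 24.1 and 22.8 CPM in WT libraries in low M-CSF. Its levels in normal M-CSF were 28.3, 38.3, 30.7 and 35.6 CPM in KO and 35.6, 28.7, 29.8 and 22.2 CPM in WT libraries. The genotypes overlapped in both media, and neither difference passed (adjusted p = 0.132 for low medium, and 0.825 for normal).

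The 4 genes of the midzone and cytokinesis were all lower in KO cells in low medium. Prc1, which crosslinks the central spindle, had 7.45, 35.02, 18.1 and 30.6 CPM in KO and 159, 162, 129 and 76.04 CPM in WT libraries in low M-CSF. The normal M-CSF groups had 282, 179.6, 258 and 179.8 CPM in KO and 330.01, 258, 316 and 262 CPM in WT libraries. Its low-medium difference was −2.51 ± 0.33 (adjusted p = 3.57e-07), without overlap. Anln, the actin-binding protein of the contractile ring, had 1.98, 12.7, 8.26 and 16.8 CPM in KO and 48.2, 68.9, 31.4 and 35.4 CPM in WT libraries in low M-CSF. Libraries in normal M-CSF held 149, 86.5, 146 and 75.2 CPM in KO and 182, 297, 236 and 293 CPM in WT libraries. KO libraries lay below WT libraries in both media, but the normal-medium difference of −1.14 ± 0.38 did not pass (adjusted p = 0.133), while the low-medium difference of −2.16 ± 0.41 did (adjusted p = 1.50e-04).

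**Figure D2:**
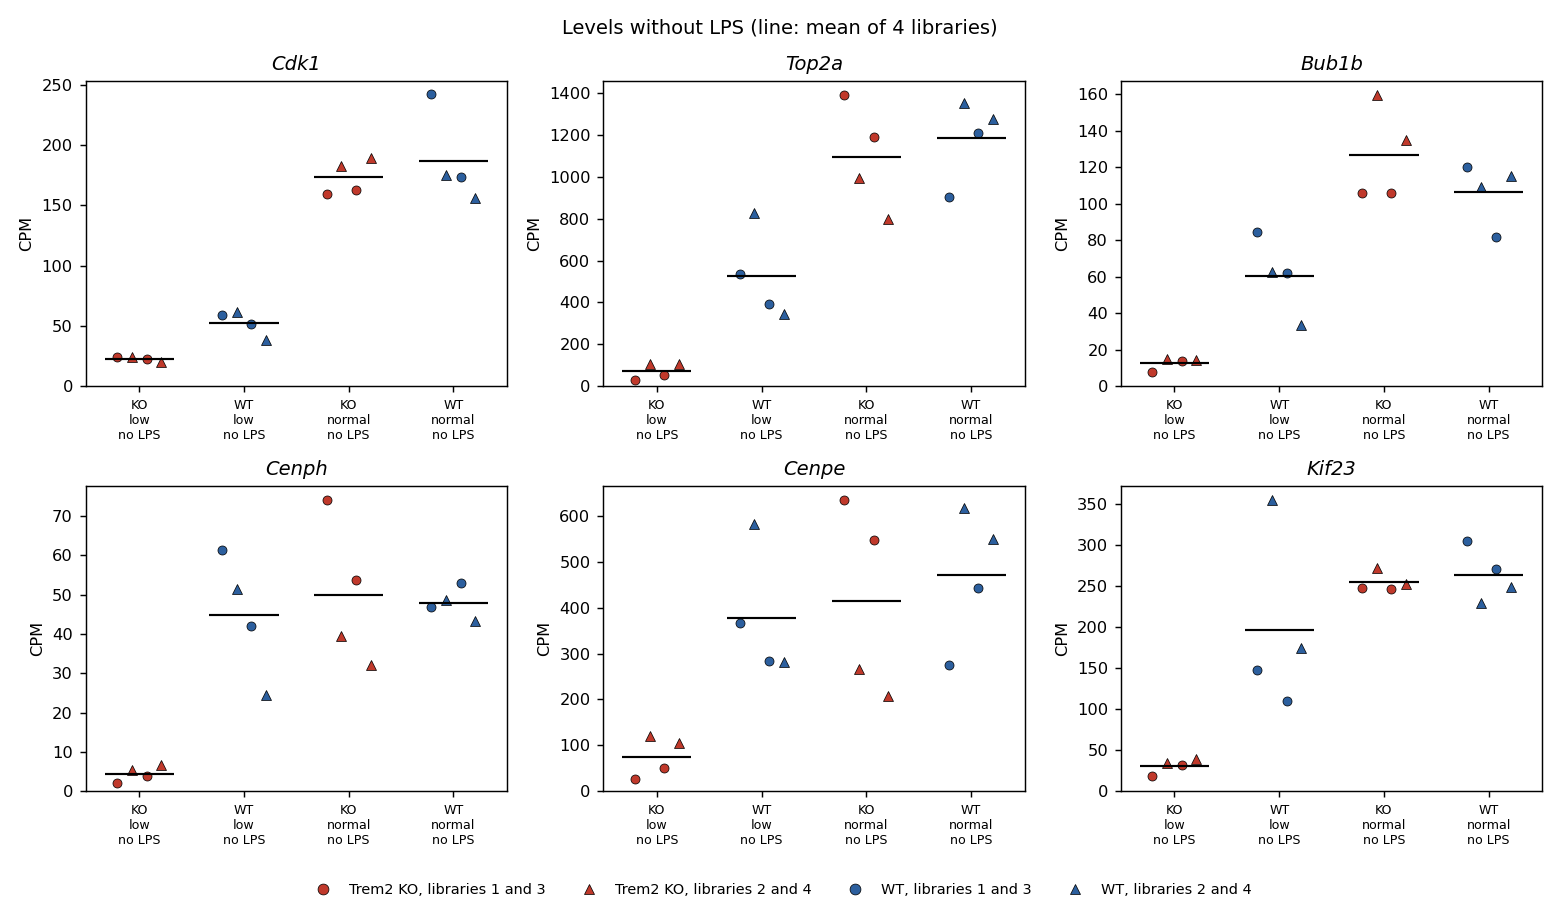
CPM in each library (points, circles for libraries 1 and 3, triangles for 2 and 4) of 6 members in the 4 groups without LPS; lines are means of 4 libraries. In low M-CSF every KO library lies below every WT library in all 6 panels, as for Top2a at 30.1 to 107 CPM in KO and 345 to 829 CPM in WT cells, and in normal M-CSF the genotypes overlap.

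In normal M-CSF the same genes showed little genotype difference. Without LPS, 0 of 53 members passed by edgeR and 0 by DESeq2, beside 1.11% of all genes tested lower and 0.747% higher in KO cells. An unadjusted p under 0.05 was reached by 4 members, Ccnb2, Spc25, Anln and Tpx2, the last 2 of opposite sign. All KO libraries lay below all WT libraries in 2 members, beside 4.59% of all genes tested, and above them in 2, beside 3.99%. With the 2 compared groups fitted alone, or with no filter on low counts, 2 members passed, 1 in each direction. With LPS, 1 member passed, Tpx2, beside 2.05% of all genes tested lower and 1.98% higher. Tpx2 then had 107, 106, 96.3 and 114 CPM in KO and 179.5, 204, 158 and 199 CPM in WT libraries, with no overlap (−0.81 ± 0.24, adjusted p = 0.0446). This call did not hold: it passed in only 1 of the 8 fits that left out a library of these groups, the one without WT library 3, and not with the libraries summed in pairs or with the replicate number as a block (−0.81). It passed by DESeq2. With the compared groups alone 9 members passed, 8 of them lower. All KO libraries lay below all WT libraries in 10 members, beside 6.73% of all genes tested, and above them in 1, beside 7.52%.

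Low M-CSF itself lowered these genes in WT cells. Without LPS, 41 of the 53 were lower in low than in normal M-CSF and 0 were higher, beside 21.9% of all genes tested lower and 22.4% higher. The median log2 change was −1.13 over the members and 0.01 over all genes. As a share of its mean in normal M-CSF, the mean in low M-CSF was 45.7% at the median member, with a range of 18.2% to 94.8%. With libraries summed in pairs 27 members passed. The values of the named members stand above. The largest falls were in Anln (−2.45 ± 0.40, adjusted p = 4.75e-06), in Cenpn and in Aurkb. Cenpn had 6.0, 3.07, 5.25 and 3.53 CPM in WT cells in low and 23.5, 18.4, 17.5 and 16.3 CPM in WT cells in normal M-CSF (−2.08 ± 0.30, adjusted p = 6.79e-07). Aurkb, the kinase of the passenger complex, had 14.9, 16.9, 11.4 and 10.9 CPM in WT cells in low and 59.6, 44.4, 58.98 and 50.2 CPM in WT cells in normal M-CSF (−1.97 ± 0.30, adjusted p = 1.42e-06). In neither did the media overlap.

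The 12 members that did not pass in WT cells were Cenpf, Nusap1, Cenpa, Hmmr, Incenp, Cenpe, Kif20b, Cenph, Cenpk, Smc4, Kif23 and Knl1. Their log2 changes ran from −0.70 in Cenpk to −0.08 in Hmmr. By role, all 5 genes of the CDK1 group, all 4 of the checkpoint, all 4 of anaphase control and all 4 of cytokinesis were lower. Only 2 of 5 centromere genes and 4 of 7 outer kinetochore genes were. The difference between roles was not tested.

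In KO cells without LPS, 52 of the 53 were lower in low than in normal M-CSF and 0 higher, beside 21.7% of all genes tested lower and 26.6% higher. The median log2 change was −3.12 over the members and 0.10 over all genes. The mean in low M-CSF was 11.1% of that in normal M-CSF at the median member, with a range of 5.84% to 82.0%. Pttg1 was the gene that did not pass (−0.29 ± 0.18). Spc24, a subunit of the NDC80 complex that grips microtubules, had 1.67, 1.82, 2.84 and 2.99 CPM in KO cells in low and 41.3, 46.4, 35.6 and 36.1 CPM in KO cells in normal M-CSF (−4.05 ± 0.24, adjusted p = 1.63e-16). Bub1 (−4.05 ± 0.34, adjusted p = 1.54e-12) and Tpx2 (−4.04 ± 0.27, adjusted p = 4.56e-15) followed, with the values given above. The media did not overlap in any of these 3 genes. Smc4 (−0.95 ± 0.33) and Cenpa (−0.63 ± 0.22) were among the smallest falls, and both calls were lost with libraries summed in pairs and without several single libraries. Without KO library 1 in low medium, Smc4 gave −0.69, and without library 3 −0.74. Without KO library 1 in normal medium it gave −0.66, and without library 3 −0.79. Cenpa gave −0.51 without KO library 2 and −0.55 without library 4 in low medium. In normal medium it gave −0.52 without KO library 2 and −0.51 without library 4.

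The fall in low M-CSF was larger in KO than in WT cells for 44 of the 53 genes by the test of that difference itself, the genotype by M-CSF interaction. For 0 members it was smaller. Of all genes tested 3.21% had an interaction in this direction and 1.41% in the other. The median interaction was −2.0 log2 units over the members and 0.06 over all genes, and 52 of the 53 had a negative value. With libraries summed in pairs 23 members passed. The 5 largest were Cenph (−3.32 ± 0.42, adjusted p = 1.72e-06), Spc25 (−3.06 ± 0.33), Tpx2 (−2.98 ± 0.34), Ttk (−2.95 ± 0.44) and Spc24 (−2.92 ± 0.30). Spc25, a partner of SPC24 in the NDC80 complex, had 9.42, 17.7, 14.03 and 13.2 CPM in KO and 103, 89.5, 79.4 and 39.1 CPM in WT libraries in low M-CSF. In normal M-CSF it had 281, 193, 224 and 169 CPM in KO and 104, 189.6, 136 and 159.9 CPM in WT libraries. KO libraries were all below in low medium, and in normal medium all but 1 KO library were above the highest WT library. Ttk, the checkpoint kinase MPS1, had 1.52, 3.63, 2.20 and 3.15 CPM in KO and 19.4, 27.7, 17.7 and 12.9 CPM in WT libraries in low M-CSF, and 44.4, 42.96, 38.5 and 35.5 CPM in KO and 28.8, 40.6, 37.6 and 41.4 CPM in WT libraries in normal M-CSF. The 9 members without a called interaction were Kif22, Cenpa, Mki67, Kif15, Kif20b, Pttg1, Anln, Smc4 and Cenpn. Cenph, with the most negative interaction, changed by −3.42 ± 0.32 in KO cells and by −0.10 ± 0.28 in WT cells, where it did not pass. Anln, the largest fall in WT cells, fell by 3.47 ± 0.42 in KO and 2.45 ± 0.40 in WT cells, an interaction that did not pass (−1.02 ± 0.54).

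**Figure D3:**
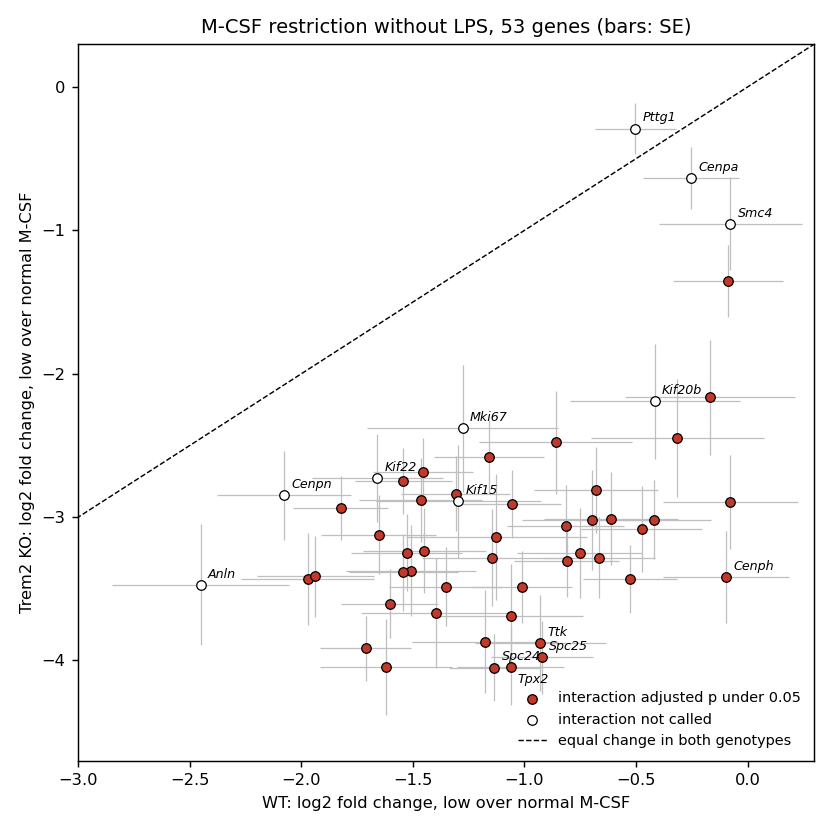
log2 fold change of each of the 53 genes for low over normal M-CSF without LPS in KO cells (vertical) and in WT cells (horizontal), with SE bars; filled points have an interaction with an adjusted p under 0.05. All but 1 point (Pttg1) lie below the dashed line of equal change, and the KO values reach −4.05 (Spc24).

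With LPS in low M-CSF, 35 of the 53 genes were lower in KO than in WT cells and 0 were higher, beside 10.9% of all genes tested lower and 8.20% higher. The members' median log2 change was −1.51 and that of all genes −0.05. In 25 members all KO libraries lay below all WT libraries, which held for 7.97% of all genes tested. All 35 were among the 51 that were lower without LPS, an overlap nearly fixed in advance because that set held 51 of the 53. Whether the 2 genotype differences differ was not tested. With the compared groups fitted alone, 22 members passed, 5 of the 35 were tested and did not pass, and 8 were not tested because the filter then removed them. RLE size factors gave 34 members, all lower, while the calls over all genes changed to 1159 higher and 1021 lower, in place of 922 and 1225. The largest differences were in genes with few counts left in KO cells. Espl1, which encodes separase, had 0, 0, 0.256 and 0 CPM in KO and 2.32, 1.24, 4.04 and 2.14 CPM in WT libraries. That is 1 count in the 4 KO libraries together and 25 in the 4 WT libraries, a ratio of 3.36% (95% exact interval 0.0818% to 20.5%). Aurkb had 0, 0, 2.05 and 0.486 CPM in KO and 6.30, 16.5, 3.64 and 2.14 CPM in WT libraries (−3.27 ± 0.59, adjusted p = 1.30e-04). Ttk had 1.24, 0, 0.512 and 0 CPM in KO and 1.33, 5.37, 2.02 and 6.85 CPM in WT libraries (−2.91 ± 0.69, adjusted p = 0.003). In all 3 genes the highest KO library was below the lowest WT library, and the fitted log2 values rest on 9 counts for Aurkb and 6 for Ttk in the KO group.

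The 18 members that did not pass in low M-CSF with LPS included 5 of the 8 kinesins (Kif4, Kif15, Kif20a, Kif20b and Kif23), and also Mki67, Mastl, Tpx2, Cenpe and Smc4. Of the 18, 3 had a value above 0, Kif4 (0.72 ± 0.37), Mastl (0.38 ± 0.30) and Pttg1 (0.21 ± 0.18). The checkpoint (4 of 4) and cytokinesis (4 of 4) genes were called throughout.

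In WT cells with LPS, 51 members were lower in low than in normal M-CSF and 0 higher, beside 24.2% of all genes tested lower and 21.4% higher (median −2.23 over the members, −0.10 over all genes). The exceptions were Mki67 (0.47 ± 0.43) and Pttg1 (0.36 ± 0.18). In KO cells with LPS, 50 were lower and 0 higher, beside 32.8% of all genes tested lower and 26.5% higher (median −3.32 over the members, −0.14 over all genes). Kif4 (−0.74 ± 0.34), Mki67 (0.73 ± 0.43) and Pttg1 (0.14 ± 0.17) did not pass there. Ncaph, a condensin subunit, had 1.66, 4.55, 6.06 and 1.28 CPM in WT cells in low and 38.9, 32.9, 37.8 and 27.5 CPM in WT cells in normal M-CSF (−3.36 ± 0.37, adjusted p = 4.04e-09). Ccna2, the cyclin of S phase and early mitosis, had 10.3, 9.92, 8.89 and 12.4 CPM in WT cells in low and 79.1, 78.6, 86.4 and 74.5 CPM in WT cells in normal M-CSF (−2.94 ± 0.24, adjusted p = 5.37e-12). Cdc20, the activator of the anaphase-promoting complex, had 7.62, 11.6, 5.25 and 12.4 CPM in WT cells in low and 77.9, 55.9, 67.6 and 67.5 CPM in WT cells in normal M-CSF (−2.88 ± 0.29, adjusted p = 7.56e-10). These were the 3 largest falls in WT cells, and the media did not overlap.

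In KO cells with LPS the largest falls in low M-CSF were in Espl1, Cenpn and Aurkb, again at few counts. Espl1 had 0, 0, 0.256 and 0 CPM in KO cells in low and 10.05, 11.1, 9.95 and 10.6 CPM in KO cells in normal M-CSF, a ratio of 0.792% (95% exact interval 0.02% to 4.45%). Cenpn had 0, 0.333, 0.512 and 0 CPM in KO cells in low and 8.08, 13.6, 14.05 and 9.96 CPM in KO cells in normal M-CSF, a ratio of 2.10% (95% exact interval 0.429% to 6.19%) from 3 and 272 counts. Aurkb had 0, 0, 2.05 and 0.486 CPM in KO cells in low and 30.6, 38.6, 34.4 and 23.7 CPM in KO cells in normal M-CSF (−5.42 ± 0.49, adjusted p = 1.39e-11). The genotype by M-CSF interaction with LPS was negative and passed for 21 members, and none passed in the other direction, beside 3.29% and 2.20% of all genes tested. With RLE size factors 17 members passed, all negative, and of all genes 268 were negative and 309 positive, in place of 370 and 247. Its median was −1.23 over the members and −0.06 over all genes. The largest values were in Espl1 (−4.26 ± 0.78), Aurkb (−3.08 ± 0.67), Cenpn (−2.90 ± 0.86), Ttk (−2.52 ± 0.78) and Birc5 (−2.28 ± 0.36). Birc5, which encodes survivin of the passenger complex, had 5.25, 2.67, 7.68 and 1.46 CPM in KO and 30.5, 19.4, 26.3 and 23.5 CPM in WT libraries in low M-CSF. Normal M-CSF gave 109, 107, 93.3 and 80.7 CPM in KO and 120.1, 117, 97.7 and 102 CPM in WT libraries. With libraries summed in pairs 0 members passed, and without KO library 1 in low M-CSF 13 passed. The call of Ttk was lost in 12 of the 16 fits that left out 1 library, at −2.64 to −2.09. That of Cenpn was lost in 11 of 16, at −3.06 to −2.47, and with the replicate number as a block (−2.91). The fitted interactions of Espl1, Cenpn, Ttk and Aurkb rest on the few counts given for KO cells in low M-CSF and are no bounds.

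LPS changed the set less uniformly than M-CSF did. Among WT cells in low M-CSF 48 members were lower and 1 higher with LPS, beside 33.6% of all genes tested lower and 27.0% higher (median −1.63 over the members, −0.18 over all genes). WT cells in normal M-CSF had 17 lower and 1 higher, beside 17.9% lower and 18.3% higher (median −0.45 and −0.04). With libraries summed in pairs 9 members passed in these normal-medium cells. KO cells in low M-CSF had 31 lower and 6 higher, beside 41.0% lower and 26.5% higher. The members' median was −0.88 there and that of all genes −0.36, so the share of members that fell, 58.5%, stands beside a large background. KO cells in normal M-CSF had 20 lower and 1 higher, beside 21.8% lower and 20.9% higher (median −0.58 and −0.05). Fitted alone, these 2 groups gave 32 calls. Members lower with LPS in all 4 comparisons numbered 11 of 53, beside 10.8% of all genes tested.

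Levels with LPS are given next for the named members, in the order KO low, WT low, KO normal and WT normal M-CSF. Cdk1 had 13.3, 5.33, 22.02 and 6.80 CPM in KO and 38.8, 28.5, 33.5 and 35.1 CPM in WT libraries in low M-CSF, and 171, 172, 152 and 174 CPM in KO and 171, 159, 164 and 158 CPM in WT libraries in normal M-CSF. Ccnb2 had 8.95, 10.3, 10.8 and 8.25 CPM in KO and 26.5, 26.5, 32.3 and 37.2 CPM in WT libraries in low M-CSF, and 79.1, 84.05, 95.3 and 81.4 CPM in KO and 125, 93.2, 129 and 99.7 CPM in WT libraries in normal M-CSF. Both genes were lower in KO than in WT libraries in low medium, and for both the genotypes overlapped in normal medium. Nusap1 had 21.6, 19.99, 27.9 and 21.8 CPM in KO and 53.3, 33.5, 50.1 and 48.8 CPM in WT libraries in low M-CSF, and 147, 212, 133 and 190.3 CPM in KO and 194, 243, 179.7 and 216 CPM in WT libraries in normal M-CSF. Tpx2 had 36.1, 46.98, 46.9 and 35.9 CPM in KO and 78.9, 38.9, 77.2 and 38.9 CPM in WT libraries in low M-CSF, and 107, 106, 96.3 and 114 CPM in KO and 179.5, 204, 158 and 199 CPM in WT libraries in normal M-CSF. In normal medium all KO libraries of Tpx2 were below the WT libraries, and its low-medium groups overlapped. Bub1b had 0.926, 2.0, 2.82 and 4.86 CPM in KO and 20.9, 11.6, 9.29 and 14.5 CPM in WT libraries in low M-CSF, and 26.9, 35.1, 33.7 and 34.2 CPM in KO and 56.5, 50.7, 61.9 and 42.3 CPM in WT libraries in normal M-CSF. Bub1 had 5.87, 1.33, 2.05 and 2.43 CPM in KO and 17.2, 6.61, 19.8 and 6.85 CPM in WT libraries in low M-CSF, and 41.5, 66.7, 40.3 and 45 CPM in KO and 86.2, 88.6, 87.6 and 91.8 CPM in WT libraries in normal M-CSF. KO libraries of both checkpoint genes were below all WT libraries in both media, and the difference passed in low medium only. Incenp had 133, 123, 121 and 82.1 CPM in KO and 173, 116, 150.3 and 141 CPM in WT libraries in low M-CSF, and 307, 289, 229 and 276 CPM in KO and 276, 380.04, 275 and 293 CPM in WT libraries in normal M-CSF. Cdca8 had 9.26, 12, 11.01 and 15.1 CPM in KO and 44.7, 31, 33.5 and 31.2 CPM in WT libraries in low M-CSF, and 142, 121, 103 and 98.96 CPM in KO and 132, 145, 113 and 137 CPM in WT libraries in normal M-CSF. Incenp overlapped between genotypes in low medium, and Cdca8 did not.

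Kinetochore and motor genes behaved in the same 2 ways. Cenpa had 13.6, 16.3, 23.3 and 36.4 CPM in KO and 22.9, 28.9, 33.9 and 52.2 CPM in WT libraries in low M-CSF, and 72.97, 71.4, 91.5 and 78.2 CPM in KO and 97.7, 85.1, 74.8 and 102 CPM in WT libraries in normal M-CSF. Cenph had 3.40, 0.666, 2.05 and 2.91 CPM in KO and 7.29, 5.79, 10.1 and 1.71 CPM in WT libraries in low M-CSF, and 44.1, 36.8, 31.3 and 33.9 CPM in KO and 26.2, 39.6, 21.8 and 36.1 CPM in WT libraries in normal M-CSF. In both, 1 or more KO libraries in low medium reached the WT range. Cenpe had 186, 114, 269 and 102 CPM in KO and 433, 145, 282 and 142 CPM in WT libraries in low M-CSF, and 389, 580.4, 303 and 593 CPM in KO and 440.2, 825, 459.9 and 643 CPM in WT libraries in normal M-CSF. Cenpf had 14.5, 10.7, 24.6 and 3.88 CPM in KO and 59.97, 19.4, 41.6 and 22.2 CPM in WT libraries in low M-CSF, and 80.8, 96.9, 55.4 and 90.3 CPM in KO and 95.1, 156, 82.5 and 129 CPM in WT libraries in normal M-CSF. Both low-medium groups overlapped, and WT libraries 1 and 3 were above libraries 2 and 4. Kif23 had 18.2, 8.33, 19.7 and 7.28 CPM in KO and 22.9, 18.2, 13.3 and 28.2 CPM in WT libraries in low M-CSF, and 108, 117, 119 and 137 CPM in KO and 79.7, 111, 82.3 and 117 CPM in WT libraries in normal M-CSF. Kif20b had 15.7, 5.0, 16.6 and 4.86 CPM in KO and 34.1, 17.8, 26.7 and 14.5 CPM in WT libraries in low M-CSF, and 47.4, 89.5, 46.8 and 96.97 CPM in KO and 80.8, 125, 81.1 and 121 CPM in WT libraries in normal M-CSF. Their genotypes overlapped in both media. Smc4 had 411, 342, 411 and 252 CPM in KO and 583, 231, 441 and 243 CPM in WT libraries in low M-CSF, and 637, 661, 448 and 717 CPM in KO and 584, 1077, 572 and 826 CPM in WT libraries in normal M-CSF. Top2a had 92.9, 53.6, 145 and 55.4 CPM in KO and 456, 145, 344 and 185 CPM in WT libraries in low M-CSF, and 738, 853, 569 and 774 CPM in KO and 839.9, 1103, 857 and 948 CPM in WT libraries in normal M-CSF. Only Top2a was apart in low medium (−1.70 ± 0.34, adjusted p = 5.03e-04). Ube2c had 9.26, 8.33, 13.8 and 14.6 CPM in KO and 49.4, 42.2, 59.4 and 53.5 CPM in WT libraries in low M-CSF, and 156, 122, 156 and 128 CPM in KO and 173, 174, 167 and 195 CPM in WT libraries in normal M-CSF. Prc1 had 20.7, 18.99, 30.2 and 10.2 CPM in KO and 84.2, 34.3, 88.9 and 33.4 CPM in WT libraries in low M-CSF, and 151, 157, 143 and 172 CPM in KO and 175, 266, 154 and 257 CPM in WT libraries in normal M-CSF. Anln had 1.85, 3.67, 3.84 and 1.94 CPM in KO and 27.5, 5.37, 26.3 and 3.85 CPM in WT libraries in low M-CSF, and 38.2, 87.3, 44.5 and 83.02 CPM in KO and 67.5, 99.6, 68.8 and 104 CPM in WT libraries in normal M-CSF. All 3 genes were lower in every KO than in every WT library in low medium.

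In WT cells in low M-CSF the largest falls with LPS were in Knl1, Kif23 and Kif20b. Knl1 had 2.32, 6.20, 7.27 and 6.42 CPM with LPS and 45.8, 96.4, 32.5 and 43.5 CPM without LPS (−3.32 ± 0.35, adjusted p = 2.28e-10). Kif23 (−3.25 ± 0.30, adjusted p = 5.74e-12) and Kif20b (−2.97 ± 0.43, adjusted p = 2.57e-07) had the values listed above, and in all 3 genes no library with LPS reached one without. In normal M-CSF the largest falls in WT cells were in Anln (−1.57 ± 0.38), Mki67 (−1.55 ± 0.43) and Kif15 (−1.52 ± 0.37). Kif15, a kinesin that stabilises the spindle, had 46.5, 64.3, 33.5 and 47.7 CPM with LPS and 117, 133, 169 and 133 CPM without LPS in these cells. In KO cells in normal M-CSF they were in Bub1b (−1.96 ± 0.24), Cenpf (−1.63 ± 0.40) and Tpx2 (−1.54 ± 0.24), none of which overlapped between LPS and no LPS. The largest falls in KO cells in low M-CSF were in Espl1, Cenpn and Cdc20. Espl1 there had 0, 0, 0.256 and 0 CPM with LPS and 2.28, 3.05, 3.85 and 3.48 CPM without LPS, a ratio of 2.50% (95% exact interval 0.0628% to 14.1%). Cenpn had 0, 0.333, 0.512 and 0 CPM with LPS and 0.456, 3.27, 3.03 and 2.28 CPM without LPS, a ratio of 9.93% (95% exact interval 2.02% to 29.7%). Cdc20 had 2.16, 1.0, 0.512 and 4.86 CPM with LPS and 6.99, 14.5, 15.3 and 11.9 CPM without LPS (−2.72 ± 0.38, adjusted p = 1.02e-07). Cenpn alone of these 3 overlapped.

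Pttg1 rose with LPS in all 4 comparisons and was the only member that did. In KO cells in low M-CSF it had 111, 147, 131 and 202 CPM with LPS and 33.9, 21.1, 29.6 and 24.4 CPM without LPS (2.44 ± 0.19, adjusted p = 3.16e-14). In WT cells in low M-CSF it had 113, 129, 115 and 152 CPM with LPS and 18.1, 17.4, 24.1 and 22.8 CPM without LPS (2.63 ± 0.19, adjusted p = 9.11e-15). In KO cells in normal M-CSF it had 147, 119, 144 and 124 CPM with LPS and 28.3, 38.3, 30.7 and 35.6 CPM without LPS (2.01 ± 0.18, adjusted p = 7.94e-12). Every library with LPS was above every library without, in all of these groups. WT cells in normal M-CSF had 98.1, 102, 98.97 and 96.7 CPM with LPS and 35.6, 28.7, 29.8 and 22.2 CPM without LPS (1.76 ± 0.18, adjusted p = 2.15e-10), again with no overlap. Of its 4 comparisons of low with normal M-CSF, the one in WT cells without LPS passed (−0.50 ± 0.18), and that call was lost without WT library 1 in low medium (−0.41), library 2 in low medium (−0.43), library 1 in normal medium (−0.37) or library 3 in normal medium (−0.46).

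In KO cells in low M-CSF, 5 other members rose with LPS on the TMM scale. This scaling raised CPM in the group with LPS and lowered them in the group without. Unscaled, the members together made up 0.08928% to 0.1255% of raw counts with LPS and 0.0944% to 0.2478% without. Rises on raw library totals were not tested, which matters most for the small ones of Tpx2, Cenpe and Mastl. With RLE size factors 34 of the 37 calls of this comparison were kept. Kif4, a chromosome-bound kinesin that works with PRC1, had 37.4, 26.99, 46.6 and 37.9 CPM with LPS and 1.98, 5.81, 1.56 and 4.78 CPM without LPS (3.32 ± 0.39, adjusted p = 2.11e-09). In WT cells in low M-CSF it had 38.4, 13.2, 22.2 and 15.4 CPM with LPS and 25.6, 29.7, 19.3 and 15.8 CPM without LPS, which overlapped (−0.01 ± 0.36). Mki67, which coats mitotic chromosomes and is the usual marker of dividing cells, had 408, 427, 396 and 306 CPM with LPS and 22.8, 149.9, 39.99 and 146 CPM without LPS in KO cells in low M-CSF (2.09 ± 0.44, adjusted p = 8.80e-05). All libraries with LPS were above those without in both genes. In WT cells in low M-CSF Mki67 had 676, 157, 601 and 162 CPM with LPS and 309, 562, 251 and 269 CPM without LPS, with libraries 1 and 3 far above 2 and 4 under LPS (0.20 ± 0.42). Tpx2 (1.16 ± 0.25, adjusted p = 1.28e-04), Cenpe (1.15 ± 0.40, adjusted p = 0.0111) and Mastl (0.82 ± 0.26, adjusted p = 0.00664) also rose in KO cells in low M-CSF. Mastl had 6.48, 8.66, 9.73 and 7.77 CPM with LPS and 2.28, 5.09, 5.96 and 4.83 CPM without LPS there, against 10.9, 2.89, 6.87 and 3.85 CPM with LPS and 33.3, 40.5, 28.6 and 25.7 CPM without LPS in WT cells. The call of Cenpe, whose values overlapped, was lost with libraries summed in pairs, without KO library 3 with LPS (0.81) or without KO library 1 without LPS (0.84).

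**Figure D4:**
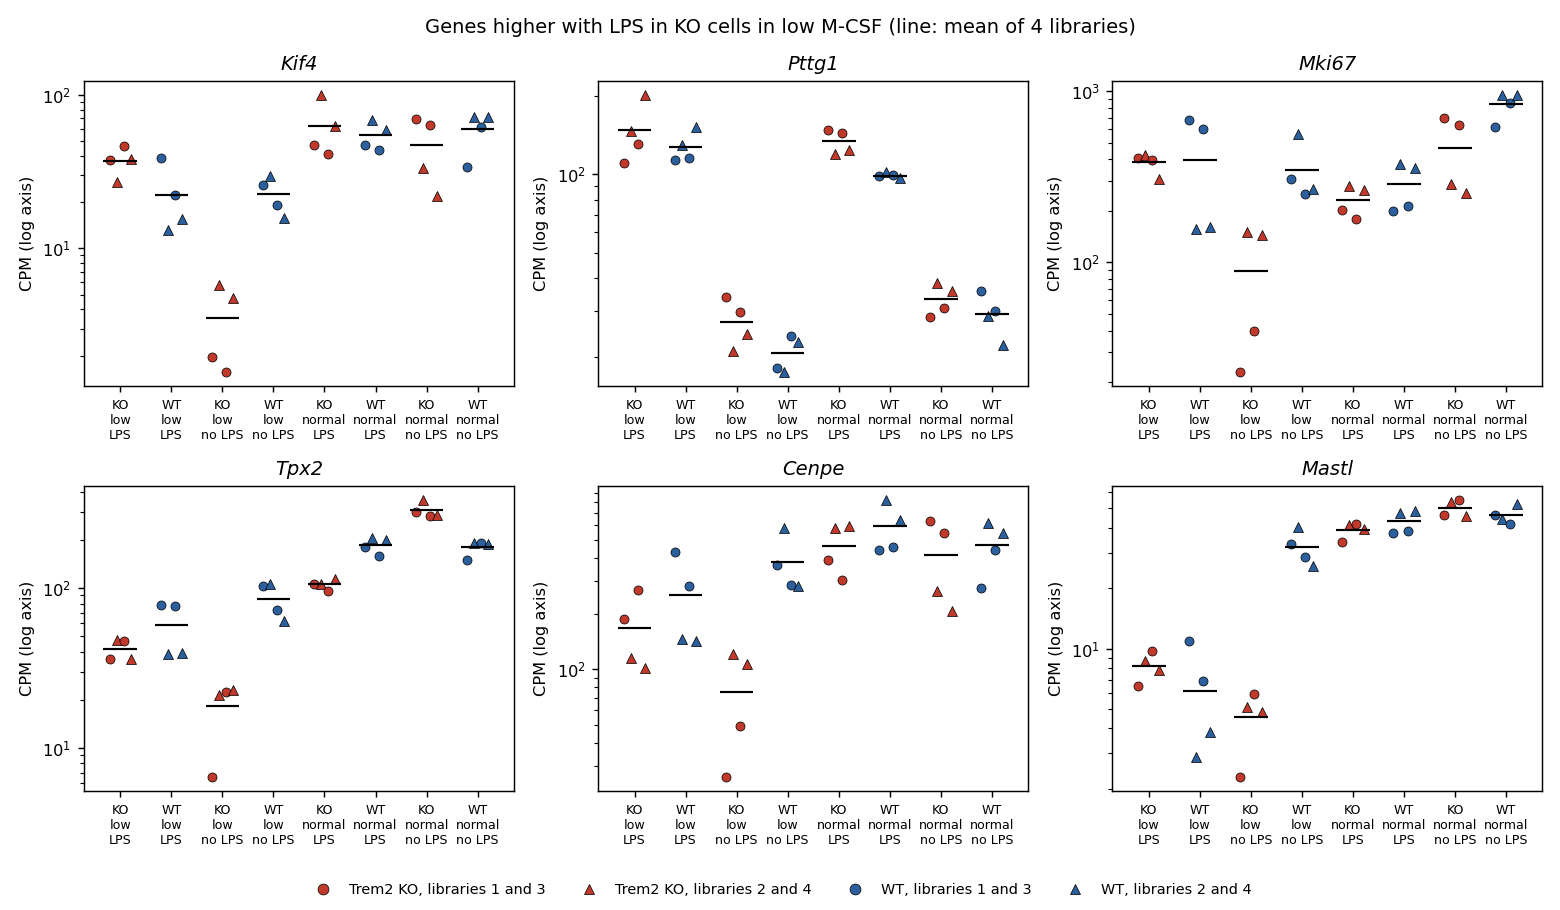
CPM on a log axis in each library (points, circles for libraries 1 and 3, triangles for 2 and 4) of the 6 members that were higher with LPS in KO cells in low M-CSF, in all 8 groups; lines are means. Pttg1 is at 111 to 202 CPM in KO cells in low M-CSF with LPS and 21.1 to 33.9 CPM without LPS, and its groups with LPS stand above those without in every medium and genotype.

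Whether the LPS response depended on the medium was tested by the M-CSF by LPS interaction. In KO cells it was positive for 4 members and negative for 9, beside 13.3% and 22.0% of all genes tested (median −0.36 over the members, −0.28 over all genes), so neither share exceeded the background. With RLE size factors 4 members were positive and 7 negative, and of all genes 1859 were positive and 1828 negative, in place of 1494 and 2477. The 4 were Mki67 (3.11 ± 0.61, adjusted p = 1.79e-04), Kif4 (2.93 ± 0.50, adjusted p = 3.13e-05), Tpx2 (2.70 ± 0.35, adjusted p = 3.22e-07) and Mastl (1.18 ± 0.34, adjusted p = 0.00663). Espl1 (−3.98 ± 0.74) and Cenpn (−2.61 ± 0.76) had the largest negative values. In normal M-CSF, KO cells had 46.8, 99.6, 41.3 and 62.4 CPM of Kif4 with LPS and 69.9, 33.4, 62.98 and 22.01 CPM without LPS, and 202, 279, 179 and 266 CPM of Mki67 with LPS and 698, 289, 636 and 253 CPM without LPS. With libraries summed in pairs 8 members passed. In WT cells the interaction was positive for 2 members, Mki67 and Pttg1, and negative for 27, beside 10.7% and 12.8% of all genes tested (median −1.07 over the members, −0.14 over all genes). The largest were Mastl (−2.24 ± 0.34), Cenph (−2.20 ± 0.46), Knl1 (−2.10 ± 0.45), Ncaph (−1.89 ± 0.47) and Kif23 (−1.81 ± 0.38). In all, 29 members passed in WT cells, 10 with libraries summed in pairs and 18 without WT library 2 in low M-CSF without LPS.

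**Figure D5:**
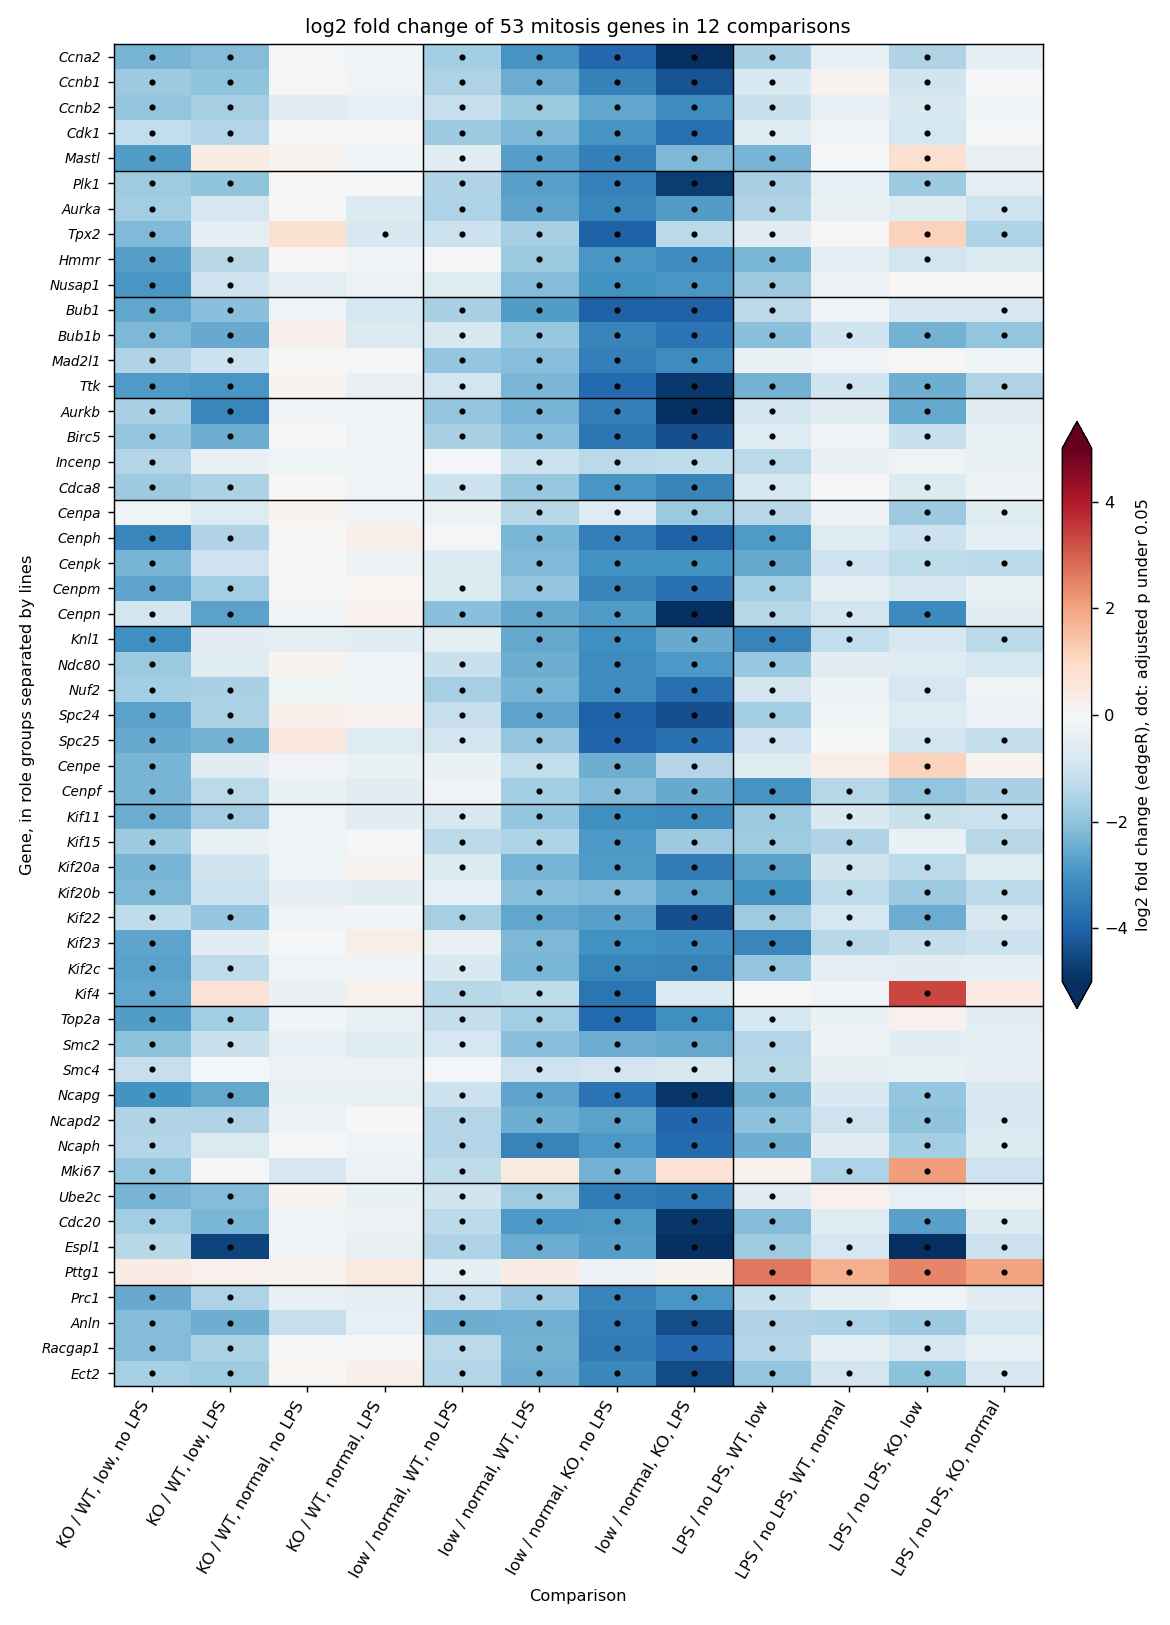
log2 fold change (edgeR, colour, clipped at 5 in either direction) of the 53 genes (rows, in role groups) in the 12 comparisons (columns); a dot marks an adjusted p under 0.05. The columns of low over normal M-CSF and of KO over WT cells in low M-CSF are blue almost throughout, the KO over WT columns in normal M-CSF are near white with 1 dot (Tpx2), and Pttg1 is red in the 4 LPS columns.

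Other genes of the same pathway, from lists that were, like the members, drawn up with earlier results of these data known, were lower in KO cells in low M-CSF without LPS too. Of 22 further spindle, motor and cytokinesis genes 18 were lower and 0 higher. Depdc1b (−3.26 ± 0.69) and Depdc1a (−2.90 ± 0.35), which take part in mitotic progression, had the largest values. Of 24 further genes of mitotic entry and exit 16 were lower, led by the kinases Pbk (−2.63 ± 0.29) and Melk (−2.40 ± 0.36), and of 28 further kinetochore and centromere genes 16, led by Ska3 (−2.76 ± 0.40) and Kntc1 (−2.75 ± 0.37), which act at the outer kinetochore. In the list of further cohesin, condensin and chromosome genes 7 of 17 were lower, among them Cdca2 (−2.40 ± 0.24) and Cdca3 (−1.82 ± 0.23). None of these lists held a gene that was higher. Of all genes tested in this comparison 8.97% were lower and 7.74% higher. The list sizes given here count all listed genes, tested or not. DNA replication genes, which act earlier in the cycle, were lower in 26 of 35, led by Uhrf1 (−3.43 ± 0.26), which maintains DNA methylation, and Mcm10 (−3.06 ± 0.46), a replication initiation factor. In normal M-CSF without LPS 0 genes of these 5 lists passed.

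Among 12 regulators of these genes, the components of DREAM, MYBL2, FOXM1 and their partners, 5 were lower in KO cells in low M-CSF without LPS, with a median of −0.35. E2f7 (−3.07 ± 0.38), a repressor that is itself a target of E2F, and Foxm1 (−2.17 ± 0.29) had the largest values. Low M-CSF lowered 9 and raised 1 of the 12 in KO cells and likewise 9 and 1 in WT cells. Of all genes tested without LPS, low M-CSF lowered 21.7% and raised 26.6% in KO cells. In WT cells these shares were 21.9% and 22.4%. Mybl2 fell the most in both genotypes, by 4.50 ± 0.43 in KO and by 2.94 ± 0.38 in WT cells on the log2 scale. The interaction passed for 3 of the 12, among them E2f7 (−2.58 ± 0.47) and Foxm1 (−2.22 ± 0.37), and for 17 of the 35 replication genes, led by Uhrf1 (−3.23 ± 0.33) and Mcm10 (−2.84 ± 0.60). Of all genes tested without LPS, 3.21% had a negative and 1.41% a positive interaction.

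Markers of other cell types moved with genotype and medium beside these results. In low M-CSF without LPS the summed level of 10 neutrophil markers was 286 to 352 CPM in KO and 185 to 206 CPM in WT libraries, and 7 of the 10 were higher in KO cells. That of 6 monocyte markers was 1254 to 1342 CPM in KO and 840.0 to 865 CPM in WT libraries, with 1 higher (F13a1, 1.63 ± 0.16) and 1 lower (Ccr2, −1.73 ± 0.17). The sum of 10 macrophage markers was 9068 to 10572 CPM in KO and 8366 to 9904 CPM in WT libraries. In normal M-CSF without LPS neutrophil markers summed to 80.6 to 91.7 CPM in KO and 74.98 to 95.005 CPM in WT libraries, and monocyte markers to 173 to 202 CPM in KO and 134 to 194 CPM in WT libraries. The sum of 9 myeloid progenitor markers in low M-CSF without LPS was 126 to 147 CPM in KO and 214 to 246 CPM in WT libraries, and 1 of the 4 tested, Sox4, was lower (−0.84 ± 0.20). With LPS in low M-CSF the neutrophil markers summed to 494 to 658 CPM in KO and 274 to 335 CPM in WT libraries, with 3 of 10 higher in KO cells. Monocyte markers there summed to 1116 to 1351 CPM in KO and 369 to 428 CPM in WT libraries, with 1 of 6 higher and 1 lower. Macrophage markers there summed to 10531 to 11047 CPM in KO and 8035 to 11390.0 CPM in WT libraries, with 3 of 10 higher. Myeloid progenitor markers there summed to 12.0 to 26.2 CPM in KO and 6.42 to 12.8 CPM in WT libraries. In normal M-CSF with LPS, neutrophil markers summed to 134 to 188 CPM in KO and 148 to 170.4 CPM in WT libraries, and monocyte markers to 171 to 202 CPM in KO and 125 to 143 CPM in WT libraries. Of all genes tested in low M-CSF, 7.74% were higher and 8.97% lower in KO cells without LPS, and 8.20% and 10.9% with LPS. The part of these markers in the differences of the mitosis genes was not tested. Sums of 8 erythroid and of 7 mast cell and basophil markers did not exceed 2.38 CPM in any library without LPS, with 6 of the 8 erythroid genes at 0 in KO cells in low M-CSF. Those of 8 lymphocyte, 8 dendritic cell and 9 stromal cell markers did not exceed 11.7, 10.03 and 6.84 CPM without LPS. Cd4 was the 1 lymphocyte marker higher in KO cells in low M-CSF (1.98 ± 0.47).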

How the data were processed

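The deposited file holds raw gene counts, 1 column per library, which the authors made with STAR, HTSeq and mm10 per the submitters' processing notes, which also name DESeq2 and give no versions or settings. Per the labels' protocols, barcoded oligo-dT-primed cDNA of the samples was pooled before the strand-specific libraries were amplified. Entrez identifiers were joined to symbols through a gene name table. The 53 members, the other gene lists and the markers were chosen with earlier results of these data known.

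The counts of all 32 libraries were fitted together with edgeR 4.0.16 in R 4.3.3 (TMM scaling, filterByExpr, 1 coefficient per group, quasi-likelihood test), and p-values were adjusted over all 11244 genes tested (Benjamini-Hochberg, threshold 0.05) for 12 pairwise and 4 interaction contrasts. Values after ± are SE, computed from the log2 change and the F statistic. CPM values are TMM-scaled and are not divided by gene length. The procedure was tested on simulated data. Exact 95% intervals of ratios of summed counts cover counting error only.

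Values in every library are given for the 2 members of each role with the highest mean CPM. The 3 largest rises and falls among called members are named in each comparison, the 5 largest in interactions, and the 2 largest called genes of each pathway list. Members outside these rules (Mastl, Mki67, Cenpe and Kif4 in some comparisons, and those listed as not called) were named after their values were seen. Alternatives were RLE size factors, no filter on low counts, DESeq2 1.42.0, the compared groups alone, the replicate number as a block, libraries summed in pairs and each library left out in turn. Correlations of same-numbered libraries' deviations ran from −0.305 to 0.269, and no comparison had all its pairs above 0.1, so that the numbers were not taken to pair libraries. Between genotypes in normal M-CSF with LPS, however, each library's best match had the same number (0.049 to 0.138). Between the media in KO cells without LPS, all same-numbered correlations were negative (−0.288 to −0.217). A block by replicate number does not cover likeness between libraries of different numbers.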

Additional observations from a re-analysis of the deposited data

Results flagged for a closer look

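In KO cells in low M-CSF without LPS, library 1 stood below the other 3 libraries of its group by Dixon's criterion for 4 samples in 3 genes, with 6.53 CPM of Tpx2, 7.75 CPM of Cdca8 and 5.62 CPM of Ube2c. In KO cells in normal M-CSF with LPS, library 3 had 152 CPM of Cdk1 and library 1 had 26.9 CPM of Bub1b, each apart from its group. In WT cells in normal M-CSF without LPS, library 1 had 149 CPM of Tpx2, apart from its group. These are 6 of 168 groups of 4 values examined, and chance flags about 1 in 20.

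The effect of M-CSF differed between genotypes by the interaction test for 21 members with LPS, all negative, beside 3.29% of all genes tested, and for 44 without LPS, all negative, beside 3.21%. The effect of LPS differed between media for 13 members in KO cells, 4 positive beside 13.3% of all genes tested and 9 negative beside 22.0%. In WT cells it differed for 29, 2 positive beside 10.7% and 27 negative beside 12.8%.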

How the results depend on the processing

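No member's called change reversed its sign under any alternative run, and the median log2 change of the members kept its direction in every comparison and alternative. With libraries summed in pairs (2 values per group), 0 members passed in the genotype by M-CSF interaction with LPS and 23 without LPS, 27 in low against normal M-CSF in WT cells without LPS, 9 with LPS in WT cells in normal M-CSF, 8 and 10 in the M-CSF by LPS interactions of KO and WT cells, and 0 between genotypes in normal M-CSF with LPS. With the compared groups alone, 22 passed between genotypes in low M-CSF with LPS (8 of the 35 no longer passed the filter), 9 in normal M-CSF with LPS and 2 without, and 32 with LPS in KO cells in normal M-CSF. With no filter on low counts, 2 passed between genotypes in normal M-CSF with LPS and 2 without.

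The replicate number as a block left 50 members between genotypes in low M-CSF without LPS, 17 and 42 in the genotype by M-CSF interactions with and without LPS, and 0 in place of 1 between genotypes in normal M-CSF with LPS. The block moved no other count by more than 1.5 times. Leaving out 1 library gave 49 to 51 members between genotypes in low M-CSF without LPS, 28 to 34 with LPS, 0 to 1 in normal M-CSF with LPS, 13 to 20 and 36 to 45 in the genotype by M-CSF interactions with and without LPS, and 9 to 18 and 18 to 31 in the M-CSF by LPS interactions of KO and WT cells. The cause of these changes was not tested, apart from the fewer values per group that summing or leaving out gives.

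Depth limits the genes with few counts in KO cells in low M-CSF with LPS (Espl1, Cenpn, Ttk and Aurkb). Libraries 1 and 3 against 2 and 4 differ in many members, the labels do not say why, and their part in the results was not tested beyond the summed pairs.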
